A study of Mus musculus with 4 samples.

Results

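The genes described are 46 members of the Toll-like receptor and NF-κB pathway, taken by symbol from a table of RNA levels in mouse colon epithelial cells. All 46 were among the 25796 genes listed, and each is represented by the transcript with the highest mean over the 4 libraries. RNA marked with N6-methyladenosine (m6A) was captured by antibody in this study, and the libraries analysed are the inputs, made from RNA before capture. There were 2 libraries labelled Ythdf1 KO (labelled KO below) and 2 labelled WT, all of total RNA from epithelial cells that had been released from the opened colon with EDTA, DTT and a ROCK inhibitor. Ythdf1 encodes a cytoplasmic protein that reads m6A. Strain, age, treatment, the altered part of the gene and the number of mice behind a library were not given in the sources used here, so p-values measure the spread between these libraries, which may be technical.

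Toll-like receptors (TLRs) and the cytosolic NOD receptors recognise molecules of microbes. Most TLRs pass the signal through the adaptor Myd88, the kinases Irak4 and Irak1 and the ubiquitin ligase Traf6 to the kinase Map3k7 (TAK1). NOD receptors reach the same kinase through Ripk2. Map3k7 activates the IκB kinase complex, which marks the inhibitor IκBα (Nfkbia) for destruction and frees NF-κB dimers to enter the nucleus. There they raise transcription of chemokines, of adhesion molecules and of their own inhibitors. The colon epithelium meets microbes at its surface, and inhibitors such as Tnfaip3, Tollip and Sigirr are known for holding this pathway down there.

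The binding sequence of NF-κB, the κB consensus, was searched on both strands of the 250 bases upstream of annotated start sites (RefSeq, build GRCm38.p6, which shares its coordinates with mm10). Of the 35 members with such a window, 11 (31.4%) held a match in at least 1 window, namely Tlr2, Tlr3, Traf3, Map3k7, Nfkb2, Nfkbia, Tnfaip3, Tnip1, Cxcl1, Cxcl2 and Ccl20. A match was present in 4.46% of the 27025 genes with a window, or 3.90% of all 32851 windows. The next lines give the 130 bases directly upstream of the start for 6 of these genes and for Bcl3, the member with the largest difference among those with a mean of at least 500, which had no match. The sequences run 5′ to 3′ on the strand of the gene, capitals mark κB matches, and positions count back from -1, the last base before the start.
Nfkbia (chr12:55492648-55492777, minus strand): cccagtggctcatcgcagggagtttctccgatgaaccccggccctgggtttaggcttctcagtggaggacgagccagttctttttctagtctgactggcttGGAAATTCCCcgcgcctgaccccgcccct
Tnfaip3 (chr10:19015411-19015540, minus strand): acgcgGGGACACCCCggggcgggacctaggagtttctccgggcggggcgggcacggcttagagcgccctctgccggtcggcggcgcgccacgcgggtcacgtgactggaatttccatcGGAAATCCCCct
Tnip1 (chr11:54962941-54963070, minus strand): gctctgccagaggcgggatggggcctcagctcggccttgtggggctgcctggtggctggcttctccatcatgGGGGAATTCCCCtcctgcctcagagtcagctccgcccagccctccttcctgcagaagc
Cxcl1 (chr5:90891115-90891244, plus strand): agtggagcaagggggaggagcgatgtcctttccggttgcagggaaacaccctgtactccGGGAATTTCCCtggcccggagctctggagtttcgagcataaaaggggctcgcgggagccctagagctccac
Cxcl2 (chr5:90903769-90903898, plus strand): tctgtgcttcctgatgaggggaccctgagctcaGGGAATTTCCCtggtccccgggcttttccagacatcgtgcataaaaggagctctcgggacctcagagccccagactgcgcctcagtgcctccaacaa
Ccl20 (chr1:83116636-83116765, plus strand): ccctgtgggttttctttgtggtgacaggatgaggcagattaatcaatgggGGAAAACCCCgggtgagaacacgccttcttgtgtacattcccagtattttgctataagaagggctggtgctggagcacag
Bcl3 (chr7:19822756-19822885, minus strand): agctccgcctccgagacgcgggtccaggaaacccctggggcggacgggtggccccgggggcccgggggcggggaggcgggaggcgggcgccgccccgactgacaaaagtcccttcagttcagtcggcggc
The match began at position -29 in Nfkbia and at -80 in Ccl20. Cxcl1 and Cxcl2 carried the same run of letters, from positions -71 and -97, and it matched on both strands at 1 base apart. Tnfaip3 had separate matches at -125 and -12. In Tnip1 overlapping matches from -58 formed a palindrome. A match describes letters in the window and does not show that NF-κB was bound. A missing match, as in Bcl3, does not show that a gene lacks a site outside the window or unlike the consensus. Some matches lay upstream of a start other than that of the transcript used here. That start was 216 bases away in Tlr2, at least 417 in Nfkb2, 712 in Map3k7 and 1569 in Tlr3.

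The values are normalised read counts, that is reads per transcript divided by 1 size factor per library, and the kept transcripts drew on 21686140 to 30951138 reads per library. They are not divided by transcript length, so no order of abundance between genes is read from them. Listed transcripts of a gene can hold the same values, as all 4 of Il33 do. Agreement between transcripts of a gene is therefore not independent, and a sum over them may count a read more than once. Ythdf1 itself, the targeted gene, had 1752 and 1737 in libraries labelled KO, against 1088 and 775.4 in WT. It was thus not lower in libraries labelled KO. Both of these lay above both WT libraries, at a ratio of group means of 1.87. Since the altered part of the gene is not known here, the level of Ythdf1 does not check the labels. Every direction below rests on the labels alone. Epithelial markers were present in all libraries, 12 of 12 listed and none at 0, with summed values of 817071 to 1068830 in libraries labelled KO and 961515 to 1015070 in WT. Markers of other cells were also counted, at summed values of 206.8 to 2722 per list in libraries labelled KO and 506.1 to 4283 in WT.

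How far a value can be trusted depended on its level. Among genes with a mean of 1000 to 2000, the libraries of a group differed by a median of 0.32 (labelled KO) and 0.29 (WT) on the log2(value + 1) scale. For genes with a mean of 50 to 200 these medians were 1.55 and 1.24, and 9.27% of all values were 0. Below 50 they were 2.29 and 4.33, with 46.0% of values at 0. Receptors, kinases and NF-κB subunits mostly lay in the upper range, whereas 10 members lay below 200, and 9 of these encode secreted or adhesion proteins. In total 31 members had a mean of at least 500 and 15 a lower one.

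**Figure D1:**
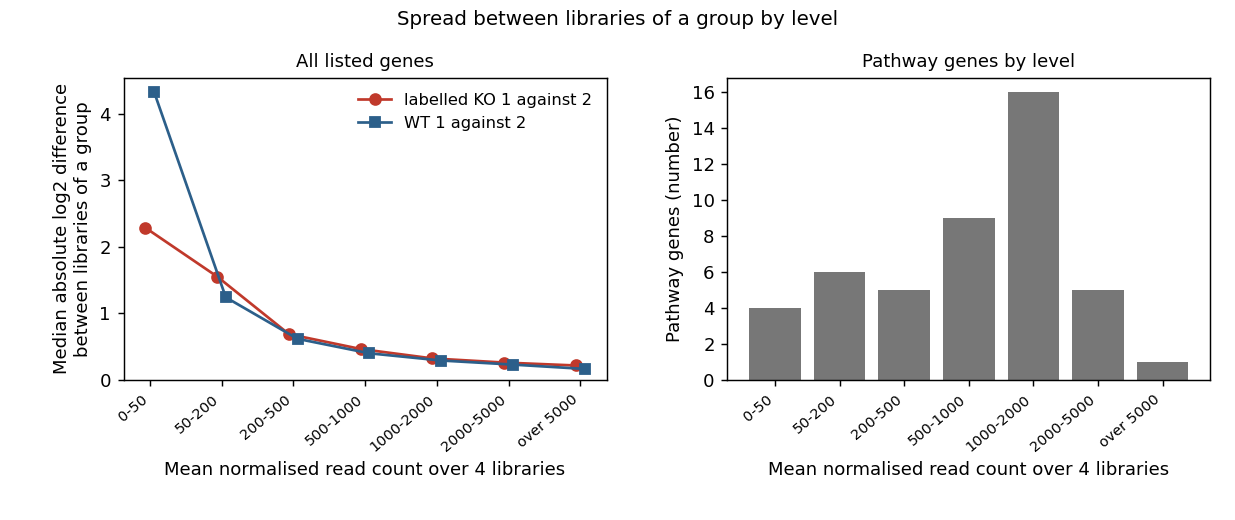
Left, the median absolute log2 difference between the 2 libraries of a group (labelled KO in red, WT in blue) for all listed genes, by mean normalised read count. Right, the number of pathway genes at each level. The spread lies above 1 on the log2 scale below a mean of 200, where 10 of the 46 members lie, and near 0.3 at a mean of 1000 to 2000, where 16 lie.

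For most of the pathway the labelled groups overlapped, and Bcl3, Irak1 and Ccl25 were the members furthest apart for their error. In limma-trend, a linear model of log2(value + 1) fitted over 23116 genes, 0 of the 46 members passed an adjusted p of 0.05, and 0.0% of all genes did. Bcl3, Irak1 and Ccl25 had an unadjusted p under 0.05, a level that 5.44% of all genes reached. edgeR's quasi-likelihood test on the recovered reads called 0 members and 0.0% of all genes, and limma without a trend called 0 members and 2.73% of all genes. DESeq2 called the same 3 members and 6.22% of all genes. It called Bcl3 and Irak1 higher in libraries labelled KO, with 1.78% of all genes, and Ccl25 lower, with 4.44%. The authors' deposited table has a q under 0.05 for Bcl3 and Ccl25, and for 4.47% of all genes. In bulk RNA, fewer cells of a type and less RNA per cell cannot be told apart.

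The median log2 difference of the 46 members was 0.03, beside -0.09 over all genes tested. Both libraries labelled Ythdf1 KO lay above both WT libraries for 6 members (13.0%; 14.3% of all genes tested) and below both for 6 (13.0%; 21.4% of all genes tested). Among the 31 members with a mean of at least 500, there were 6 above and 4 below, where the shares over all genes at that level were 22.7% and 12.8%. The log2 difference was under 0.5 in size for 29 of these 31 members, and 82.5% of genes at that level shared this. The exceptions were Bcl3 and Irak1. The members' shares of non-overlapping groups lay near or below those of all genes. Members with a κB match had 1 gene above, 2 below and 8 overlapping, with a median of 0.04, and the 24 members with a window and no match had 5 above and 3 below, with a median of 0.01.

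**Figure D2:**
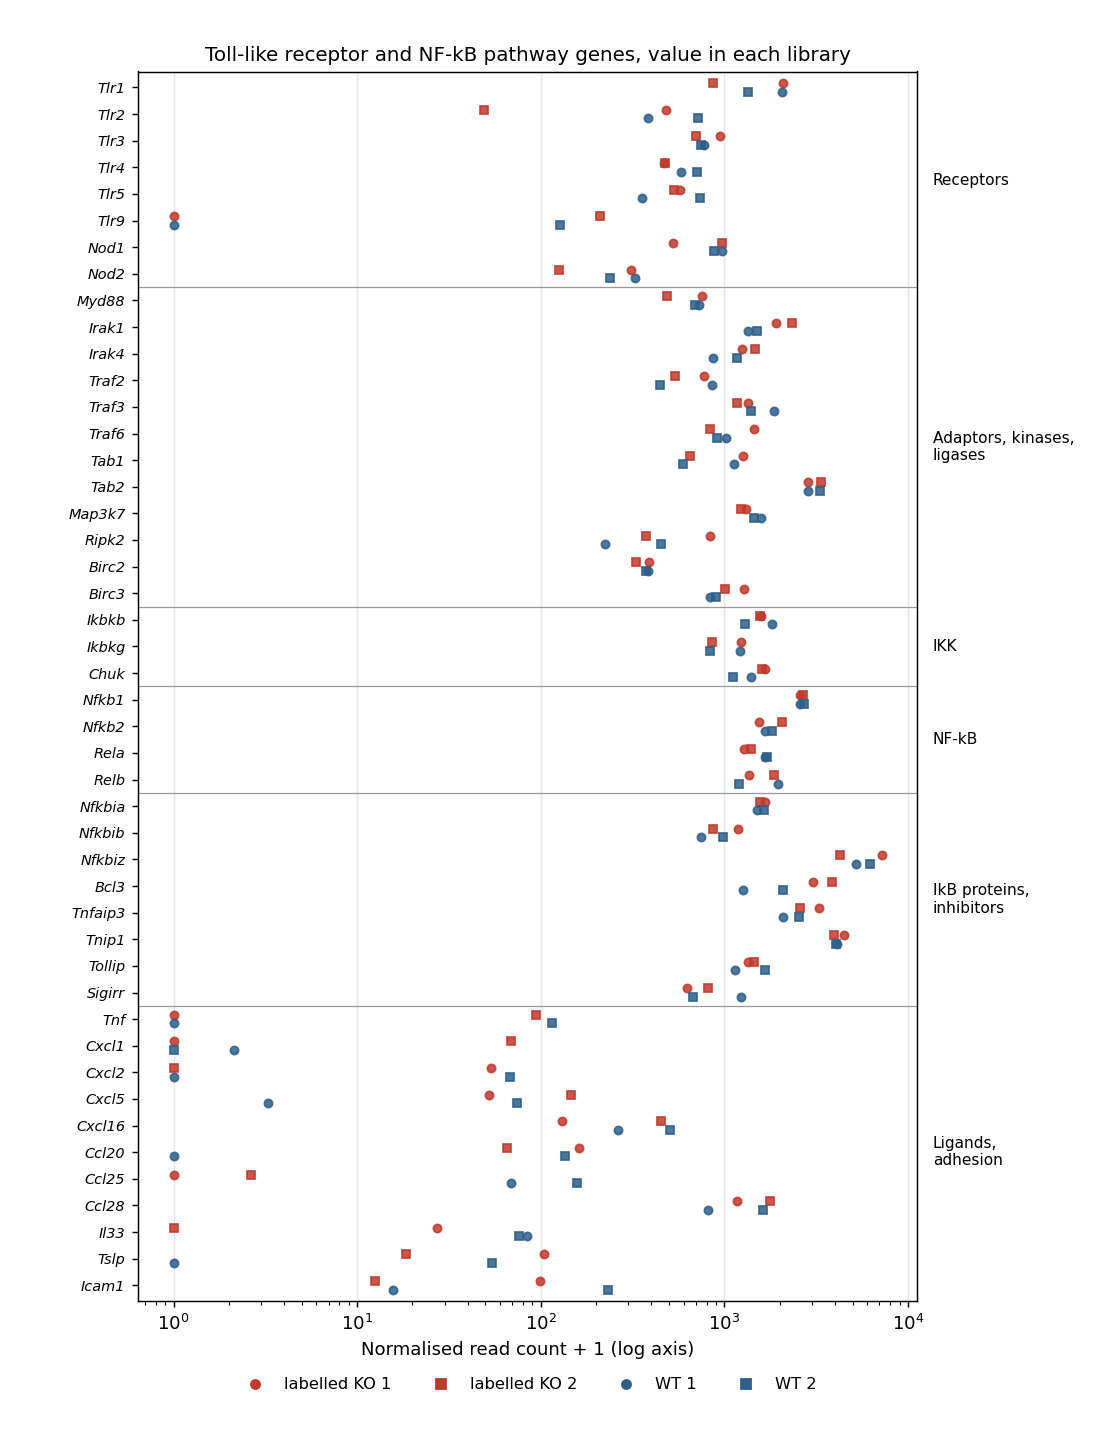
Normalised read count plus 1 (log axis) of each pathway gene in each library, with labelled KO libraries in red above the WT libraries in blue, and circles and squares for replicates 1 and 2. Bcl3 and Irak1 show the libraries labelled KO apart from WT, the libraries of Nfkb1 sit close together, and the ligands scatter down to 0 within a group.

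Among the receptors, Tlr4, the receptor of bacterial lipopolysaccharide, was the only member whose groups did not overlap. It stood at 471.2 and 476.4 in libraries labelled KO, against 580.5 and 706.7 in WT. The means were 473.8 ± 3.73 and 643.6 ± 89.3 (SD, n = 2 each), a log2 difference of -0.43 ± 0.36 (SE) with a limma-trend adjusted p = 0.819. Of the 8 receptors, 3 had differences above 0 and 5 below, with a median of -0.34.

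Tlr2, which recognises bacterial lipoproteins, depended on 1 library. It had 478.9 and 47.98 in libraries labelled KO 1 and 2, against 383.2 and 717.8 in WT. The log2 difference was -1.78 ± 1.09 (SE), and it was -0.13 without the library labelled KO 2 and -3.42 without KO 1. Tlr1, a partner of Tlr2, stood at 2094 and 862.7 in libraries labelled KO, against 2054 and 1349 in WT. Here too KO 2 was the lowest library, and KO 1 lay beside WT 1. The remaining receptors overlapped. Tlr3, an endosomal sensor of double-stranded RNA, had 943.3 and 698.1 in libraries labelled KO, against 774.4 and 743.1 in WT. Tlr5, the flagellin receptor, had 569.1 and 531.0 in libraries labelled KO, against 356.2 and 739.0 in WT. Its KO values lay between those of WT. Nod1, a cytosolic sensor of bacterial peptidoglycan, had 522.6 and 968.6 in libraries labelled KO, against 970.5 and 879.4 in WT. Nod2, which senses muramyl dipeptide, had 310.2 and 124.1, against 325.7 and 238.3 in WT. Tlr9, the endosomal receptor of CpG DNA, was listed at 0 in 1 library of each group, and stood at 208.4 in KO 2 and 126.2 in WT 2.

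Irak1 and Irak4, the member kinases of the receptor complex, had higher values in libraries labelled KO. Irak1 (mm10 chromosome X, 74013914 to 74023921, minus strand), which Irak4 activates on the Myd88 scaffold, stood at 1916 and 2339, against 1337 and 1499 in WT. The groups did not overlap, at means of 2127 ± 299 and 1418 ± 115 (SD, n = 2 each) and a ratio of 1.50. The log2 difference was 0.58 ± 0.23 (SE; 95% interval 0.01 to 1.15), with an unadjusted p = 0.0463 and an adjusted p = 0.759 in limma-trend. DESeq2 gave it an adjusted p = 0.0491, while the authors' deposited table lists q = 0.0845 for this transcript and q = 0.0388 for NM_008363.2. All 5 listed Irak1 transcripts had a ratio above 1, from 1.29 to 1.60. The libraries of its transcript NM_001177974.1 overlapped, with 1193 and 1709 in libraries labelled KO, against 1043 and 1214 in WT. The difference was 0.44 to 0.72 when any 1 library was left out.

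Irak4, the first kinase of the complex, stood at 1249 and 1462 in libraries labelled KO, against 861.1 and 1173 in WT. Both KO values lay above WT, by 0.43 ± 0.29 (SE) on the log2 scale, and the difference did not pass (adjusted p = 0.808). It was 0.20 without WT 1 and 0.65 without WT 2. The adaptor Myd88 had 751.4 and 483.9 in libraries labelled KO, against 730.4 and 691.6 in WT, so the groups overlapped.

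The ubiquitin ligases of the TRAF family and the cIAP proteins gave values on both sides. Traf3, which restrains the noncanonical arm of the pathway, had 1346 and 1165 in libraries labelled KO, against 1855 and 1403 in WT. All 8 of its listed transcripts had ratios below 1, and the log2 difference was -0.37 ± 0.26 (SE; adjusted p = 0.815). It was -0.16 without WT 1 and -0.57 without WT 2. Birc3, which encodes cIAP2, had 1284 and 1013 in libraries labelled KO, against 830.7 and 899.6 in WT. The groups did not overlap, with a log2 difference of 0.40 ± 0.29 (SE; adjusted p = 0.815) and all 7 transcripts above 1. It was 0.23 without KO 1, and 0.26 with the transcripts summed. Its relative Birc2, which encodes cIAP1, had 386.8 and 329.2, against 384.4 and 373.6 in WT, and overlapped on this transcript. Of its 4 listed transcripts, 3 lay below WT without overlap. Summed over transcripts, Birc2 had 1205 and 1317 in libraries labelled KO, against 1594 and 1556 in WT, a log2 difference of -0.32. Traf6 had 1448 and 837.1, against 1016 and 912.7 in WT, and Traf2 had 772.7 and 536.8, against 858.9 and 445.2 in WT. Both overlapped, with the libraries labelled KO outside the WT values for Traf6 and between them for Traf2.

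Tab1, Tab2 and Ripk2 overlapped between the groups on the transcript with the highest mean, and Map3k7 did not. Map3k7 had 1308 and 1229 in libraries labelled KO, against 1580 and 1449 in WT, a log2 difference of -0.25 ± 0.24 (SE; adjusted p = 0.834). That value belongs to XR_390323.3, and RefSeq gives the prefix XR to predicted non-coding transcripts. The coding transcript NM_009316.1 had 1267 and 1203 in libraries labelled KO, against 1444 and 1141 in WT, and its groups overlapped. Summed over its transcripts the log2 difference was -0.07. The kinase adaptor Tab2 had 2842 and 3347, against 2855 and 3333 in WT. Its log2 difference was -0.00 with a 95% interval from -0.48 to 0.48. Tab1 had 1259 and 646.8 in libraries labelled KO, against 1133 and 594.7 in WT, so replicate 1 was the higher library in both groups. Ripk2, the kinase of the NOD receptors, stood at 832.8 and 374.7, against 222.0 and 450.3 in WT. KO 1 was the highest library. The log2 difference of 0.82 ± 0.59 (SE) was 0.24 without KO 1, 0.31 without WT 1, 1.33 without WT 2 and 1.39 without KO 2. These Ripk2 values belong to a transcript with the prefix XR, as do those given above for Nod1. The coding Ripk2 transcript NM_138952.3 also overlapped, with 799.8 and 220.9 in libraries labelled KO, against 171.3 and 261.5 in WT. A minor Ripk2 transcript, XM_006537678.2, ran the other way without overlap, with 88.2 and 38.05 in libraries labelled KO, against 118.4 and 158.5 in WT.

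Of the IκB kinase complex, the catalytic subunit Ikbkb and the scaffold Ikbkg overlapped between the groups. Ikbkb had 1584 and 1563 in libraries labelled KO, against 1827 and 1298 in WT. Ikbkg (NEMO) had 1226 and 854.5, against 1219.6 and 837.0 in WT, a ratio of 1.01. The other catalytic subunit, Chuk, stood at 1662 and 1603 in libraries labelled KO, against 1388 and 1109.6 in WT. That difference of 0.40 ± 0.25 (SE; adjusted p = 0.793) belongs to XR_001782557.1, again with the non-coding prefix. The coding transcript NM_007700.2 had 1413 and 1498, against 1506 and 1304 in WT, a ratio of 1.04 with overlapping groups. The log2 difference of Chuk was 0.23 without WT 2, and 0.18 with its transcripts summed.

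Of the NF-κB subunits, Nfkb1, Nfkb2 and Relb had ratios of group means close to 1. Nfkb1, the precursor of p50, had 2598 and 2668 in libraries labelled KO, against 2579 and 2732 in WT. Its log2 difference was -0.01 with a 95% interval from -0.46 to 0.44. Nfkb2, the precursor of p52, had 1545 and 2066, against 1667 and 1822 in WT, and Relb, its partner in the noncanonical dimer, had 1353 and 1869, against 1951 and 1205 in WT. The WT values lay between those labelled KO for Nfkb2 and outside them for Relb, and the ratios were 1.04 and 1.02. The 95% intervals of the log2 difference were wider, from -0.56 to 0.63 for Nfkb2 and from -0.74 to 0.84 for Relb. Rela, the transactivating subunit of the canonical dimer, was the exception in position. It had 1277 and 1394 in libraries labelled KO, against 1659 and 1700.2 in WT, means of 1335 ± 82.7 and 1680 ± 29.0 (SD, n = 2 each). The log2 difference was -0.33 ± 0.23 (SE; adjusted p = 0.812). It was -0.40 to -0.27 when any 1 library was left out. Another Rela transcript, XM_006531694.3, overlapped with a ratio of 0.947.

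Bcl3 (mm10 chromosome 7, 19808462 to 19822755, minus strand) had the largest difference of the 31 members with a mean of at least 500. It encodes a nuclear IκB protein that binds p50 and p52 dimers and can turn them into activators or repressors. It stood at 3048 and 3879 in libraries labelled KO, against 1260.2 and 2078 in WT. Both values labelled KO lay above both WT values, although the WT libraries themselves differed. The means were 3464 ± 588 and 1669 ± 578 (SD, n = 2 each), a ratio of 2.08. The log2 difference was 1.09 ± 0.30 (SE; 95% interval 0.36 to 1.81), with an unadjusted p = 0.0102 and an adjusted p = 0.759 in limma-trend. DESeq2 gave an adjusted p = 0.00514, and the authors' deposited table a log2 fold change of 1.05 with q = 0.00711. Both listed transcripts shared the direction, with ratios of 2.08 and 2.23. The difference was 0.73 to 1.45 when any 1 library was left out. The span of an antisense gene, Gm16174, overlaps that of Bcl3 over 3636 bases, introns included. Gm16174 had 154.1 and 504.6 in libraries labelled KO, against 426.1 and 151.4 in WT. Its groups overlapped, and whether counting used strand was not given in the sources used here.

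The IκB proteins and feedback inhibitors other than Bcl3 had log2 differences between -0.35 and 0.34. Nfkbia had 1672 and 1555 in libraries labelled KO, against 1514 and 1647 in WT, a ratio of 1.02. The 95% interval of its log2 difference ran from -0.51 to 0.58. Nfkbib, which encodes IκBβ, had 1193 and 863.6, against 748.4 and 986.4 in WT, and overlapped. Nfkbiz, a nuclear IκB protein of barrier epithelia, had 7199 and 4286 in libraries labelled KO, against 5219 and 6187 in WT. Here libraries labelled KO lay on either side of WT.

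Tnfaip3, which encodes the ubiquitin-editing enzyme A20, had 3296 and 2574 in libraries labelled KO, against 2091 and 2544 in WT. The groups did not overlap, but KO 2 and WT 2 were close, and the log2 difference of 0.34 ± 0.23 (SE) had an adjusted p = 0.808. It was 0.16 without KO 1, 0.20 without WT 1 and 0.52 without KO 2, and summed over its transcripts the groups overlapped. Tnip1, which helps A20 at ubiquitin chains, had 4512 and 3934, against 4122 and 4077 in WT. Its log2 difference was 0.04 with a 95% interval from -0.37 to 0.45. The TLR inhibitor Tollip had 1343 and 1445 in libraries labelled KO, against 1147 and 1669 in WT. Sigirr, a decoy-like receptor of the same family as the TLRs, had 625.3 and 813.1, against 1233 and 672.4 in WT. WT 1 was the highest library for Sigirr, and both inhibitors overlapped.

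**Figure D3:**
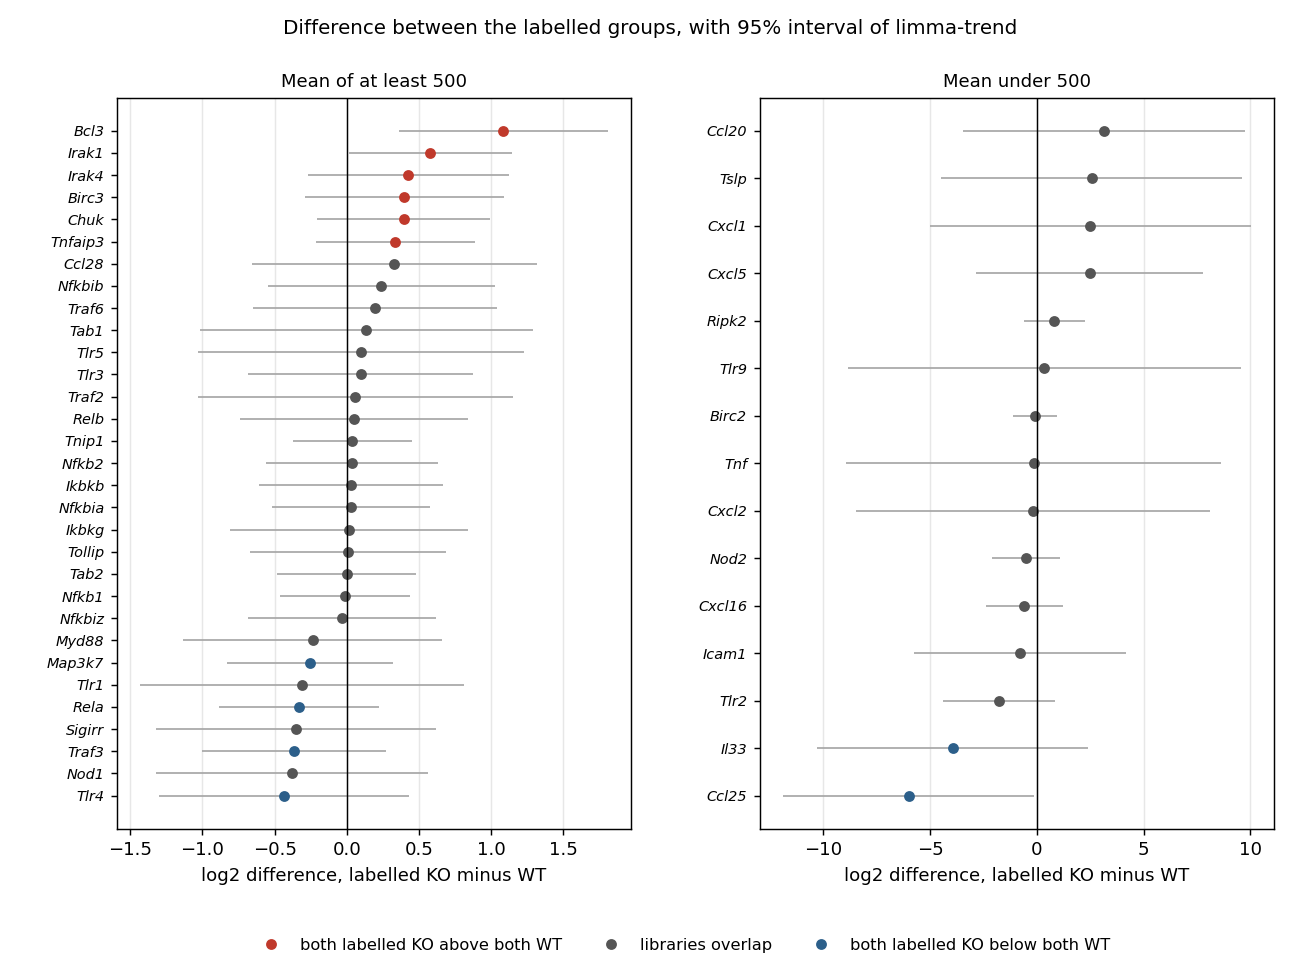
The log2 difference of each pathway gene, labelled KO minus WT, with its 95% interval from limma-trend, for members with a mean of at least 500 (left) and under 500 (right, wider axis). Bcl3 at 1.09 and Irak1 at 0.58 have intervals above 0 on the left, and Ccl25 at -6.00 has one below 0 on the right.

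The secreted ligands and Icam1 were counted at low values, apart from Ccl28 and Cxcl16, and the libraries of a group differed widely. Ccl28, a mucosal chemokine of epithelial cells that draws plasma cells, had 1172 and 1783 in libraries labelled KO, against 817.2 and 1618 in WT. The groups overlapped, with a log2 difference of 0.33 ± 0.41 (SE; adjusted p = 0.877) that turned to -0.16 without WT 1. Cxcl16, a membrane-bound chemokine, had 129.9 and 448.3, against 261.5 and 504.8 in WT. In both genes replicate 2 was the higher library of each group.

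Ccl25, a chemokine known from the small intestine, had the lowest ratio of the members. Its kept transcript (XM_011242045.2, mm10 chromosome 8, 4325350 to 4360000, plus strand) stood at 0 and 1.65 in libraries labelled KO, against 67.6 and 157.5 in WT. That is 2 reads against 216, and the ratio of group means was 0.00735. With each group's reads divided by its summed size factors, the ratio was 0.00776, with a 95% exact counting interval of 0.000934 to 0.0284. Such an interval covers counting error only and is narrower than the spread between libraries at this level. limma-trend gave a log2 difference of -6.00 ± 2.44 (SE) with an adjusted p = 0.759, DESeq2 an adjusted p = 0.00972, and the authors' deposited table q = 0.0120. Most other transcripts of the gene did not share the pattern. XM_006508739.3 came nearest, with 0 and 1.65 in libraries labelled KO, against 1.13 and 73.7 in WT. The curated coding transcript NM_009138.3 had 50.4 and 11.6 in libraries labelled KO, against 2.25 and 73.7 in WT, and the groups overlapped for all 6 other transcripts and for the sum, which had a log2 difference of -0.76. The span of a further gene on the same strand, LOC108167518, overlaps that of the kept transcript over 9282 bases, introns included. Whether exons are shared was not tested, so the assignment of reads to Ccl25 stays uncertain. LOC108167518 had 371.3 and 101.7 in libraries labelled KO, against 202.9 and 498.7 in WT.

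**Figure D4:**
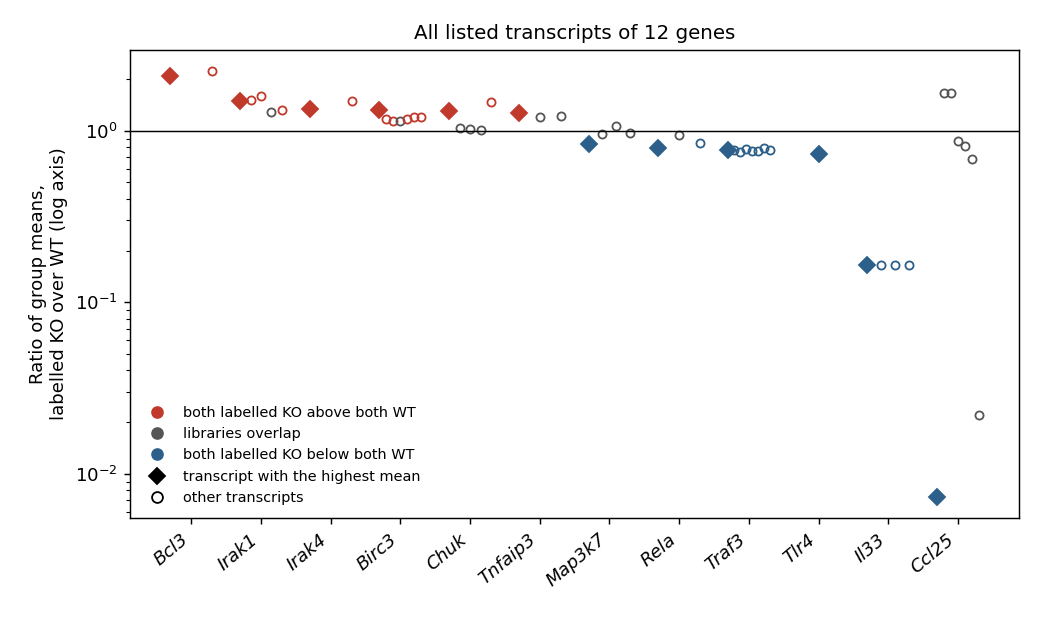
Ratio of group means, labelled KO over WT (log axis), for every listed transcript of the 12 genes whose groups did not overlap on the transcript with the highest mean (filled diamonds). The transcripts of Bcl3 and Traf3 stay together, those of Chuk and Map3k7 include values near 1, and those of Ccl25 run from 0.00735 to 1.66.

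Il33, an alarmin stored in the nucleus of barrier and stromal cells, had 26.2 and 0 in libraries labelled KO, against 83.4 and 74.7 in WT. The groups did not overlap, at a log2 difference of -3.94 ± 2.61 (SE; adjusted p = 0.805). It was -1.56 without KO 2 and -6.32 without KO 1, and -2.56 in edgeR and -2.57 in DESeq2. The neutrophil chemokines did not separate the groups. Cxcl1 was listed at 0 in KO 1 and in WT 2, with 67.8 in KO 2 and 1.13 in WT 1. Its reads were 82 against 1, and all 82 belonged to KO 2. The ratio, scaled by size factors as for Ccl25, was 68.7 with a counting interval of 12.0 to 2747. Cxcl2 had 52.4 and 0 in libraries labelled KO, against 0 and 66.6 in WT. Cxcl5 had 51.4 and 144.8, against 2.25 and 73.7 in WT. The 3 genes thus had low values in WT 1, and no library was high for all of them.

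Tnf, the cytokine that itself activates NF-κB, was listed at 0 in replicate 1 of both groups and stood at 93.5 in KO 2 and 114.1 in WT 2. Ccl20, an epithelial chemokine for lymphocytes and dendritic cells, had 160.9 and 64.5 in libraries labelled KO, against 0 and 135.3 in WT. Its log2 difference of 3.14 ± 2.72 (SE) turned to -0.40 without WT 1 and was 6.69 without WT 2. Tslp, an epithelial cytokine, had 102.8 and 17.4, against 0 and 53.5 in WT. Icam1, the adhesion molecule of leukocyte docking, had 97.9 and 11.6 in libraries labelled KO, against 14.7 and 232.2 in WT. Both genes overlapped, with standard errors of 2.90 and 2.04 on the log2 scale, so no difference could be told from the spread between libraries.

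Other genes of the pathway behaved likewise. Of 62 entries, 58 were listed and 57 tested, of which 0 passed limma-trend or edgeR, beside 0.0% of all genes. DESeq2 called 1 of the 57, Il1b, as lower in libraries labelled KO. It called 6.22% of all genes, and 4.44% as lower. Both libraries labelled Ythdf1 KO lay above both WT libraries for 10 of the 57 (14.3% of all genes tested were) and below for 8 (21.4% were). The median log2 difference was -0.09. Traf5, a TRAF adaptor of TNF-family receptors, had the lowest p, with 54.3 and 147.2 in libraries labelled KO, against 302.1 and 413.9 in WT. Its log2 difference was -1.97 ± 0.74 (SE; unadjusted p = 0.0366, adjusted p = 0.759). Irf3, the transcription factor downstream of Tlr3, had 1401 and 1411, against 867.9 and 1025 in WT, a log2 difference of 0.58 ± 0.26 (SE). These Irf3 values belong to a transcript with the prefix NR, which RefSeq gives to non-coding transcripts. Summed over the transcripts of Irf3, the log2 difference was 0.53. Tab3, a relative of Tab2, had 404.3 and 550.1 in libraries labelled KO, against 743.9 and 789.5 in WT, and Traf1 had 399.4 and 26.5, against 498.2 and 657.3 in WT. The groups of these 4 genes did not overlap, and all had a limma-trend adjusted p = 0.759.

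Il1b and Il1a, cytokines made mainly by myeloid and barrier cells, were at 0 in both libraries labelled KO on the transcript with the highest mean. Summed over transcripts, Il1a had 0.827, or 1 read, in KO 2. Il1b stood at 120.6 and 14.1 in WT, at least 25.0-fold lower in libraries labelled KO against a floor of 3 reads per library, or 5.24-fold by WT 2 alone. Il1a stood at 56.4 and 25.2 in WT, at least 15.1-fold lower, or 9.37-fold by WT 2 alone. limma-trend gave both an adjusted p = 0.759, and DESeq2 gave Il1b an adjusted p = 0.0420. Of 10 myeloid markers listed, 4 lay below and 0 above in libraries labelled KO (21.4% and 14.3% of all genes tested), with Lyz2 at 0 in both. Their summed values were 799.0 to 1167 there, against 1510.4 to 1723 in WT. Lymphocyte and plasma cell markers had 1 of 8 below and 0 above, with Cd4 at 0 in both libraries labelled KO, and summed values of 206.8 to 463.4 there, against 506.1 to 645.1 in WT. Stroma and muscle markers had 2 of 12 below and 0 above, with sums of 2121 to 2722, against 2395 to 4283 in WT, and endothelium and nerve markers had 3 of 11 below and 0 above, with sums of 771.7 to 1688, against 1443 to 1534 in WT. Epithelial markers had 3 of 12 below and 2 above. No marker of these last 3 lists was at 0 in both libraries of a group. The part of these cells in the values of Il1a, Il1b, Il33, Tlr2 or Tlr4 was not tested.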

How the data were processed

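Input RNA of mouse colon epithelium was measured in 4 libraries, 2 labelled Ythdf1 KO and 2 WT. The deposited expression signal lists 87526 transcripts. Every value was a whole multiple, within 0.001, of the lowest value above 0 of its library (100% of values), so reads were recovered. For WT 2 this step was 1.01, close to 1. The submitters' processing notes name the build mm10 and, without roles, the tools deepTools 3.3.0, HOMER 4.10, MACS2 2.1.0, SAMtools 1.3.1, Bowtie2 2.2.5 and CASAVA 1.8. The counting program and its strand setting were not given in the sources used here. The authors deposited a q-value, a p-value and a log2 fold change beside each transcript, per the file headers. No listed transcript had a mean under 11.6.

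Per gene the transcript with the highest mean was kept (ties, in Ccl20, Il33 and Tnf, by accession), and genes that reached a value of 1 in 2 libraries were tested, which all 46 members passed. The fit of log2(value + 1) used limma-trend 3.58.1 (robust, R 4.3.3), genotype label as the only term, with Benjamini-Hochberg adjustment over all genes. The added 1 shrinks the change of low genes, but where a library is at 0 a mean of log2 values can exceed the change of the means, as in Ccl20 (3.14, against 0.75 in edgeR). A permutation of 2 against 2 libraries cannot give an exact two-sided p below 0.333. Alternatives were summed or single transcripts, another pseudocount, other filters, quantile and TMM scaling, limma without trend, edgeR 4.0.16 and DESeq2 1.42.0 on recovered reads, the replicate number as a block, and leaving out each library. On counts simulated for this comparison (22460 genes), limma-trend called 80 of 100 genes given a log2 change of 2, 16 of 100 given 1 and 5 unchanged genes. In the same order, edgeR called 88, 22 and 42, and DESeq2 called 85, 26 and 319. The changed genes were drawn from those with a mean of at least 500, so their recovery does not cover lower members such as Ccl25. The simulated spread followed the trend over level, with no further differences between genes.

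The members and lists were chosen with earlier results of these data known. Members to be named were those whose groups did not overlap, the 10 largest differences, any called by a tool or by the authors, and the 3 highest means per role, 32 in all. The other 14 were added after their values were seen. Among other pathway genes, those called and the 6 with the smallest p were named. Per-library values come from recovered reads without molecular identifiers, so counting intervals and floors cover counting error only.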

Additional observations from a re-analysis of the deposited data

How the results depend on the processing

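The count of 0 members called held under all alternatives other than DESeq2 (3 members), and that of all genes other than in DESeq2 (1438) and limma without trend (632). On the simulated counts, of 22460 genes, 319 of the genes called by DESeq2 were unchanged. The simulated spread had no differences between genes beyond the trend. That number therefore need not carry over to the calls in the real libraries. With 1 library left out, 11 to 20 members lay above and 11 to 16 below, since 1 against 2 libraries overlap less often by construction. The list's median stayed between -0.06 and 0.11. The replicate numbers did not pair the libraries (correlation of their deviations 0.022 over 7431 genes), and a replicate block left 0 members called, with the same median of 0.03.

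Of 32 members, 15 kept their direction without each library. This was fixed in advance for the 6 members above WT and the 6 below WT without overlap. Their sign cannot turn when 1 library is left out. The others that kept their direction were Tlr2, Ripk2 and Cxcl5. Directions turned for members with differences near 0 and for low genes with wide spread. They also turned without some library for Tlr1 (-0.31), Nod1 (-0.38) and Ccl28 (0.33), which had means of at least 500. With all transcripts summed, log2 differences were 0.021 for Tab2, -0.030 for Ikbkg and 0.036 for Nfkb1. With TMM scaling they were 0.023 for Tab2 and 0.012 for Nfkb1. edgeR gave 0.021 for Tab2, 0.0092 for Nfkb1 and 0.031 for Nfkbiz, and DESeq2 0.013 for Tab2, 0.0014 for Nfkb1 and 0.027 for Nfkbiz. With quantile normalisation they were -0.046 for Ikbkb, -0.040 for Ikbkg, -0.051 for Nfkb2, -0.027 for Relb, -0.033 for Tnip1 and 0.53 for Icam1. The cause was not tested. Leaving out 1 library gave ranges that crossed 0 for 17 members. They were -0.95 to 0.33 for Tlr1, -0.12 to 0.31 for Tlr3, -0.82 to 0.068 for Nod1, -0.12 to 0.12 for Tab2, -0.22 to 0.28 for Ikbkb and -0.25 to 0.29 for Ikbkg. Others were -0.053 to 0.030 for Nfkb1, -0.17 to 0.25 for Nfkb2, -0.29 to 0.40 for Relb, -0.41 to 0.34 for Nfkbiz, -0.059 to 0.14 for Tnip1 and -0.54 to 5.56 for Cxcl1. Further ranges were -1.48 to 0.30 for Cxcl16, -0.40 to 6.69 for Ccl20, -0.16 to 0.82 for Ccl28, -0.32 to 5.45 for Tslp and -2.73 to 1.17 for Icam1.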
